A study of Mus musculus with 8 samples.

Results

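The genes described here are interferon-stimulated genes together with the sensors, receptors and transcription factors that lead to their induction. They were a list of 46 gene symbols, matched by symbol to the array annotation. Of the 46, 42 were measured by a probe set that carries a single gene symbol, among 22180 genes measured in all. Oas1a, Dtx3l and Gbp2 were covered only by probe sets of several genes, and no probe set was listed for Ifi44. Tmem173 appears under its current symbol Sting1. The 42 were 6 sensors, 2 receptors, 4 transcription factors, 2 genes of feedback and ISG15 conjugation, 16 antiviral effectors, 5 ADP-ribosyl or ubiquitin ligases, 3 GTPases and 4 genes of antigen presentation.

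Type I interferons are secreted when a cell detects foreign or misplaced nucleic acid through sensors such as RIG-I, MDA5, TLR3 and the cGAS-STING pathway. They bind the receptor IFNAR on the same or a neighbouring cell, and a complex that contains STAT2 and IRF9 then enters the nucleus and binds interferon-stimulated response elements in the promoters of its target genes. Many targets block viral replication, some feed back on the pathway, and others raise antigen presentation. In skin, melanocytes carry the receptor and respond to interferon.

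The cells were melanocytes isolated from mouse pups aged 1 to 5 days and cultured for 22 days in MGM-2 medium. KO cells carried floxed Atg7 alleles and Cre recombinase driven by the tyrosinase promoter (Atg7 f/f Tyr::Cre), and WT cells carried the same floxed alleles without Cre (Atg7 f/f), so that both genotypes hold floxed Atg7. Atg7 encodes an enzyme needed to form autophagosomes. The tyrosinase promoter is active mainly in pigment cells, and which cells of these cultures lost Atg7 was not measured. Cells received 20 J/cm² UVA-1, the long-wave band of ultraviolet A, or were sham treated, with lysis for RNA after 6 h. RNA was measured on 8 Affymetrix whole-transcript arrays, 2 in each of the groups KO UVA, KO sham, WT UVA and WT sham, with replicate numbers 1 and 2 in every group. The labels call the arrays biological duplicates without telling what the numbers mean or whether pups were pooled, so p-values measure the spread between these samples only. Values below are log2 intensities unless stated otherwise. They are given for number 1 and then number 2, and a log2 difference of 1 is a 2-fold ratio.

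The arrays stood apart by replicate number before anything else. Across genes, duplicates of a group correlated at 0.962 to 0.978, whereas UVA and sham arrays of 1 genotype and number correlated at 0.996 to 0.997. Fibroblast markers (10 of 10 measured, none at 0) summed to 43877 and 19180 intensity units in KO UVA, 46988 and 20867 in KO sham, 43255 and 8452 in WT UVA, and 44706 and 9586 in WT sham. Melanocyte markers (10 of 10 measured, none at 0) summed to 57575 and 84126 in KO UVA, 55461 and 83057 in KO sham, 54351 and 94317 in WT UVA, and 57077 and 96286 in WT sham. All arrays thus read strongly for the labelled cell type, and the arrays of number 1 also carried more fibroblast signal. In bulk RNA, fewer cells of a type and less RNA per cell cannot be told apart. The labels give the sex as female, yet the Y-linked Eif2s3y read 418 to 829 intensity units on 6 arrays, against 82 in WT UVA and 68 in WT sham of number 1, and Xist read 3595 to 5394 on all 8. In number 1 this gap and the genotype cannot be told apart, so array values are given by number; the 4 arrays of number 2 all read high for Eif2s3y. Atg7 itself read 598 to 831 on KO arrays and 832 to 1004 on WT arrays, and the sources used here do not say which exons its probes cover.

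By their median, the interferon genes read higher in number 2 than in number 1 in all 4 groups. The median over the 42 was 8.64 and 8.68 in KO UVA, 8.54 and 9.03 in KO sham, 8.01 and 8.80 in WT UVA, and 8.09 and 9.29 in WT sham. It was highest on the WT sham array of number 2 and lowest on the WT UVA array of number 1, and the KO arrays lay above the WT arrays of number 1 and below the WT sham array of number 2. Number 2 exceeded number 1 by a median of 0.20 in KO UVA, 0.37 in KO sham, 0.65 in WT UVA and 0.77 in WT sham. In 24 of the 42, all 4 arrays of number 2 lay above all 4 of number 1, a pattern shown by 16.6% of all genes. The 24 included all 4 transcription factors (Irf1, Irf7, Irf9 and Stat2), Isg15 and Usp18, and 8 of the 16 antiviral effectors. The reverse order held for 3, Ifnar1, Isg20 and Oas2, against 15.5% of all genes. The single highest reading fell on WT sham of number 2 for 27 of the 42, against 15.2% of all genes, and the lowest on WT UVA of number 1 for 22, against 11.3%. The range over the 8 arrays exceeded 1 log2 unit in 21 of the 42 (50%) and in 11.3% of all genes. Fibroblast markers ran the other way between the numbers and melanocyte markers the same way, and their part in the levels of the interferon genes was not tested.

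**Figure D1:**
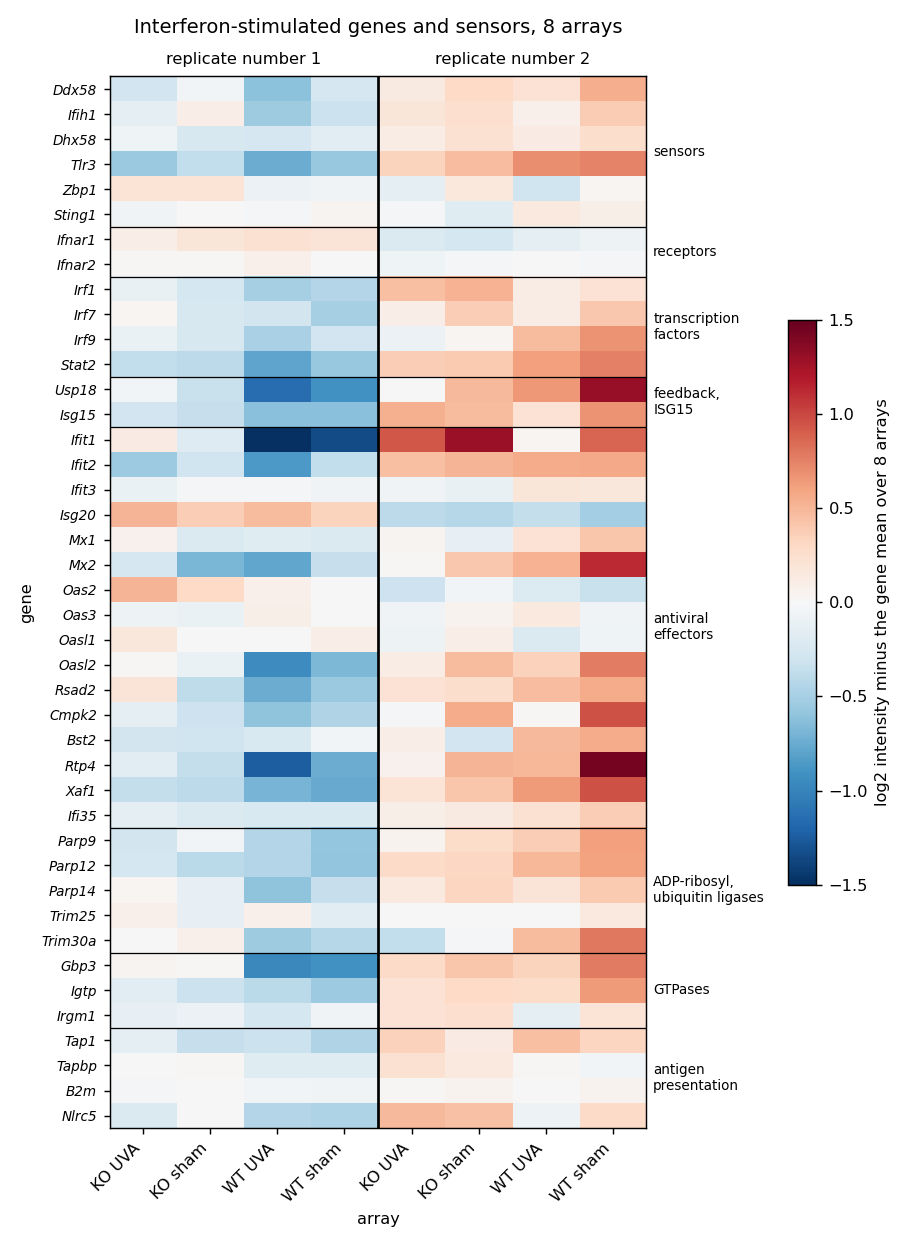
Colour gives each gene's log2 intensity minus its own mean over the 8 arrays; genes run down the page grouped by role, and arrays run across, number 1 left of the line and number 2 right of it. Most genes are below their mean on the WT arrays of number 1 and above it on the WT arrays of number 2, with most KO arrays between them, while Ifnar1, Isg20 and Oas2 run the other way.

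**Figure D2:**
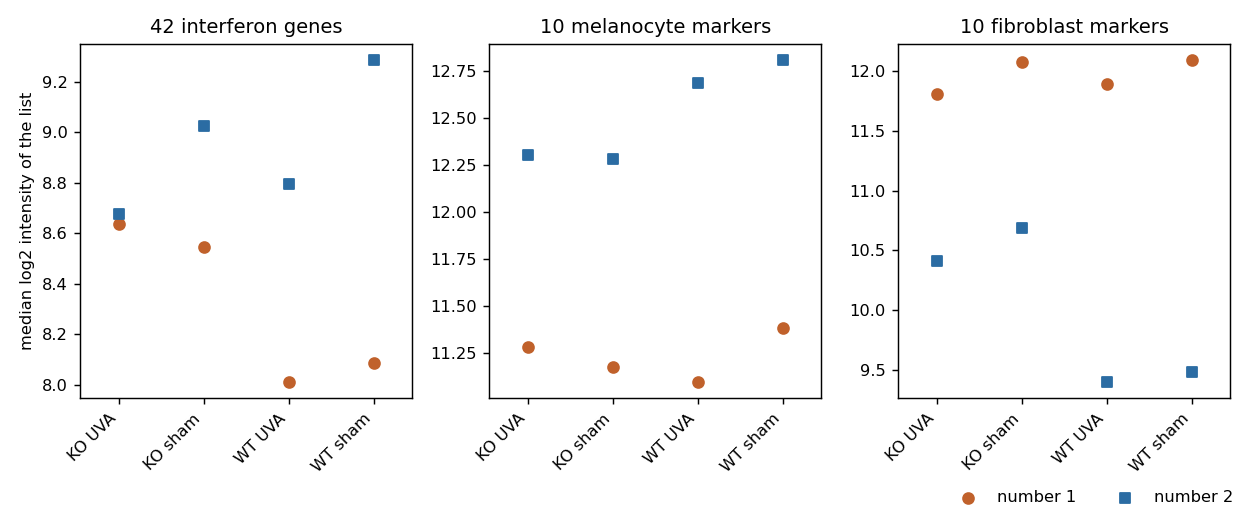
Median log2 intensity on each array (points; circles for number 1, squares for number 2) of the 42 interferon genes, 10 melanocyte markers and 10 fibroblast markers, by group. The interferon genes spread from 8.01 to 9.29, and the gap between the numbers is wider in WT than in KO for all 3 lists.

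The promoters were searched for the letters of the elements through which interferons act. RefSeq promoter windows (build GRCm38.p6) were found for 35 of the 46 symbols, in 42 windows. In the 250 bases before the start, the core of the interferon-stimulated response element (GAAA, any 2 bases, GAAA) was searched on both strands and found in 14 of the 42 windows (33.3%), against 978 of 32851 windows of all genes (2.98%). The gamma-activated site (TTC, any 3 bases, GAA), which reads the same on both strands, was found in 7 of 42 (16.7%), against 7.02% of all. The response element was in 5 of the 20 windows (25%) of the genes that crossed between the numbers, described below. Of these genes Gbp3, Ifit2, Irf9 and Trim30a had 2 windows, and Usp18, Rtp4, Parp9 and Parp14 had none. Some widely varying genes held no match: Xaf1, Oasl2 and Cmpk2 spanned 1.71, 1.70 and 1.57 log2 units over the arrays. A match describes the letters, not binding. The 170 bases before the start are shown for Ifit1, Rsad2, Gbp3 and Isg15, which hold the element and varied widely over the arrays. The same bases are shown for Ifit3 and B2m, which hold the element yet hardly varied, although B2m read near the top of the intensity scale. They are written along the gene's strand, with the element in capitals (TTTC, any 2 bases, TTTC where it lies on the opposite strand). Ifit1 is at chr19:34640719-34640888 on the plus strand, Isg15 at chr4:156200819-156200988 on the minus strand, Rsad2 at chr12:26456453-26456622 on the minus strand, and Gbp3 at chr3:142559874-142560043, Ifit3 at chr19:34583359-34583528 and B2m at chr2:122147517-122147686 on the plus strand. Isg15 holds 3 overlapping matches and Gbp3 2.
Ifit1: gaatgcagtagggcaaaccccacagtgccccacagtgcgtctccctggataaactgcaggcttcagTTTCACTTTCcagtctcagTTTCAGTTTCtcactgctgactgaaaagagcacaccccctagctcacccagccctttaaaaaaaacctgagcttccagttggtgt
Isg15: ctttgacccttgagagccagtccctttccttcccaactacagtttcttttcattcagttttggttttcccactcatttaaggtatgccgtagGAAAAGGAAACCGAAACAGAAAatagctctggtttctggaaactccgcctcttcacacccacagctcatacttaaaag
Rsad2: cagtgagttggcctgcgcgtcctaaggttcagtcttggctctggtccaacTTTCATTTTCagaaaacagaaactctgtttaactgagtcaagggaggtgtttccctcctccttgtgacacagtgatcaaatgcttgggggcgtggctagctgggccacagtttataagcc
Gbp3: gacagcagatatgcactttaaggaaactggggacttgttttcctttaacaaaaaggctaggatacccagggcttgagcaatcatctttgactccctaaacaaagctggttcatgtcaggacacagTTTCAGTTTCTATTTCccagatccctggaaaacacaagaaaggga
Ifit3: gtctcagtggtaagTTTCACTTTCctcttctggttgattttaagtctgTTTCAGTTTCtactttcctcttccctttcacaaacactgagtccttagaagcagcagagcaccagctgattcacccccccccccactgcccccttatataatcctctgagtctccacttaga
B2m: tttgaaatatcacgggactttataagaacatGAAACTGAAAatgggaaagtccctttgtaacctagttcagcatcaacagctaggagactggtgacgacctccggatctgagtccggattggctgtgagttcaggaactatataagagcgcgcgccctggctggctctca

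Comparing KO with WT asks how the interferon genes stand in cultures that carry Tyr::Cre beside floxed Atg7. No member passed the test. In limma's fit of 4 group means, 0 of 42 had an adjusted p under 0.05 averaged over treatments, after sham or after UVA-1, against a background of 0% of all genes in each. At an unadjusted p under 0.05 there were 0 members in each of these 3 comparisons, against 2.33%, 2.01% and 1.59% of all genes. Blocking on the replicate number, limma still passed 0 members (all genes 0.0316% averaged, of which 0.0271% higher and 0.00451% lower in KO, and 0% after sham and after UVA-1). At an unadjusted p under 0.05 the blocked fit held 5 members averaged (11.9%, against 8.88% of all genes), 3 after sham (7.14%, against 5.55%) and 5 after UVA-1 (11.9%, against 4.18%). The median difference of the 42, KO minus WT, was 0.02 averaged over treatments, -0.03 after sham and 0.09 after UVA-1, beside -0.01 over all genes for the average and -0.02 after UVA-1.

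These small medians covered opposite differences in the 2 replicate numbers. In number 1, 36 of 42 genes were higher in KO when averaged over treatments, with a median difference of 0.22, and in number 2 only 11 of 42 were, with a median of -0.16 (all genes 0.00 and -0.02). The split held after both treatments: the median was 0.18 in number 1 and -0.22 in number 2 after sham, and 0.27 and -0.10 after UVA-1. In 20 of the 42, KO was higher in both pairs of number 1 and lower in both pairs of number 2, against 9.65% of all genes. The opposite crossing was seen in 0 members and 6.99% of all genes. Ifi35, among the 20, had a second, dimmer probe set that crossed the opposite way. That probe set read 7.28 and 7.44 in KO UVA, 7.20 and 7.46 in KO sham, 7.39 and 7.39 in WT UVA, and 7.31 and 7.41 in WT sham. The 20 were the sensors Ddx58 and Tlr3, the factors Irf7, Irf9 and Stat2, the deconjugase Usp18, 7 of 16 antiviral effectors, 4 of 5 ligases, 2 of 3 GTPases and Tap1. Beside this, fibroblast markers differed by a median of -0.01 between KO and WT in number 1 and by 1.19 in number 2 (5 and 10 of 10 higher in KO), and melanocyte markers by 0.00 and -0.33. The Y-linked Eif2s3y read 82 and 68 intensity units on the WT UVA and WT sham arrays of number 1. It read 418 to 829 on the other arrays, so in number 1 this gap and the genotype cannot be told apart. The part of the markers and of this gap in the crossing was not tested. The crossing was not given a test of its own.

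**Figure D3:**
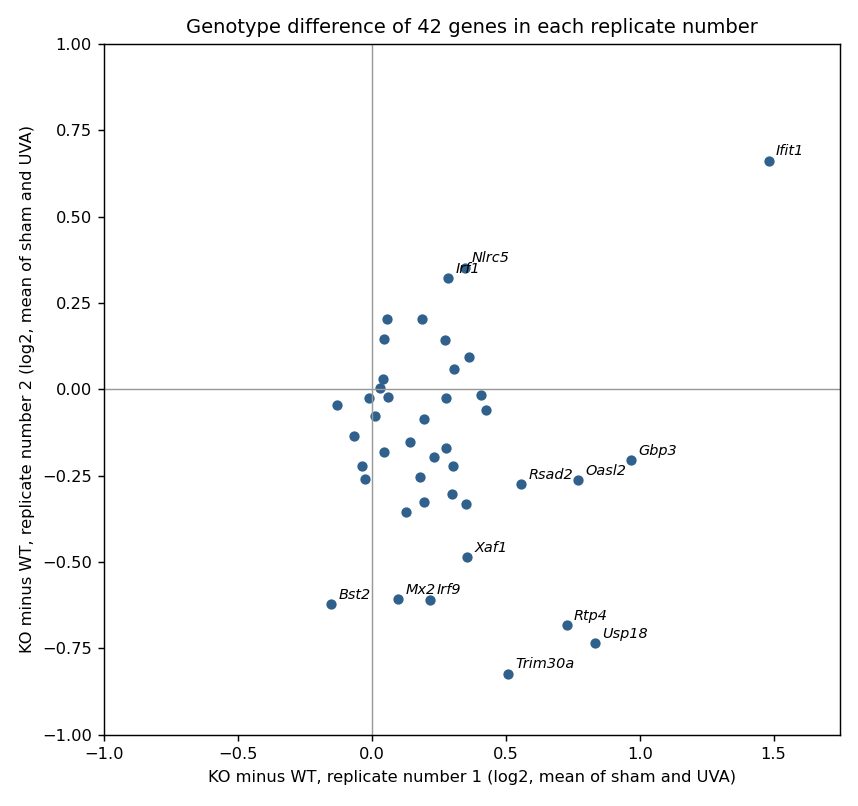
Each point is 1 of the 42 genes, with its KO minus WT difference (log2, mean of sham and UVA-1) in number 1 on the horizontal axis and in number 2 on the vertical axis. Many points lie right of 0 and below 0, with Gbp3, Usp18, Rtp4 and Trim30a far out, and Ifit1 stands alone at 1.48 and 0.66.

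The sensors come first in the pathway. Ddx58 encodes RIG-I, a cytosolic sensor of viral RNA. It read 10.29 and 10.70 in KO UVA, 10.53 and 10.87 in KO sham, 9.95 and 10.79 in WT UVA, and 10.31 and 11.12 in WT sham. KO was higher in number 1 and lower in number 2, and the genotypes overlapped. Ifih1, which encodes the related sensor MDA5, read 9.38 and 9.71 in KO UVA, 9.63 and 9.78 in KO sham, 8.99 and 9.61 in WT UVA, and 9.21 and 9.91 in WT sham. Tlr3, the endosomal RNA receptor, read 10.05 and 10.94 in KO UVA, 10.24 and 11.06 in KO sham, 9.86 and 11.30 in WT UVA, and 10.04 and 11.35 in WT sham. Its number 2 arrays all lay above its number 1 arrays, and the WT gap (1.44 after UVA-1 and 1.31 after sham) was wider than the KO gap (0.88 and 0.82). Dhx58 encodes LGP2, a regulator of the RIG-I family, and ranged from 7.39 to 7.90. Its values were 7.58 and 7.75 in KO UVA, 7.40 and 7.87 in KO sham, 7.39 and 7.76 in WT UVA, and 7.47 and 7.90 in WT sham, with no consistent side for either genotype.

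Zbp1, a sensor of left-handed nucleic acid that can start necroptosis, was among the 5 members higher in KO in all 4 pairs. It read 7.61 and 7.27 in KO UVA, 7.61 and 7.56 in KO sham, 7.32 and 7.11 in WT UVA, and 7.35 and 7.43 in WT sham. The averaged difference of 0.21 (SE 0.09 with the replicate block, limma adjusted p = 0.572) did not pass. Sting1, the adaptor activated by the product of cGAS, was lower in KO in all 4 pairs, with 10.62 and 10.64 in KO UVA, 10.68 and 10.49 in KO sham, 10.66 and 10.82 in WT UVA, and 10.72 and 10.76 in WT sham. Its averaged difference was -0.13 (SE 0.07 with the block, limma adjusted p = 0.622), and its arrays spanned only 0.33 log2 units.

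The receptor chains varied little, by 0.50 log2 units over the 8 arrays for Ifnar1 and 0.13 for Ifnar2. Ifnar1 read 11.20 and 10.88 in KO UVA, 11.28 and 10.84 in KO sham, 11.33 and 10.97 in WT UVA, and 11.29 and 11.02 in WT sham. It was lower in KO in all 4 pairs, with an averaged difference of -0.10, a difference that did not pass (limma adjusted p = 0.618 with the block), and was 1 of the 3 members lower in number 2 throughout. Ifnar2 stayed between 11.02 and 11.16, with 11.11 and 11.02 in KO UVA, 11.10 and 11.07 in KO sham, 11.16 and 11.07 in WT UVA, and 11.07 and 11.07 in WT sham. Among the ligands, 18 of 20 listed were measured and none passed any test. Ifnb1, the interferon that many cell types make first, read 4.81 and 4.75 in KO UVA, 4.91 and 4.70 in KO sham, 4.52 and 4.81 in WT UVA, and 4.70 and 4.64 in WT sham, so that the groups overlapped. Of the others, Ifna1 and Ifna15 were lower in KO in all 4 pairs. Ifna15 read 7.38 and 7.55 in KO UVA, 7.61 and 7.84 in KO sham, 7.75 and 7.83 in WT UVA, and 7.89 and 7.97 in WT sham. KO minus WT was -0.33 in number 1 and -0.21 in number 2, and the average of -0.27 did not pass (SE 0.07 with the block, limma adjusted p = 0.469). Ifna1 read 8.97 and 9.31 in KO UVA, 8.82 and 9.30 in KO sham, 9.06 and 9.35 in WT UVA, and 8.97 and 9.39 in WT sham. Its average of -0.09 (-0.12 in number 1 and -0.07 in number 2) did not pass either (SE 0.07 with the block, limma adjusted p = 0.708). The range over the 8 arrays of the other 15 ligands lay between 0.15 log2 units for Ifna16 and 0.81 for Ifna4. Ifna16 read 9 or 10 intensity units, so its range was a single step of the whole-number values. Ifnb1 read 23 to 30 units. Readings this near the lowest value on the arrays, 7, cannot tell a steady ligand from one that was not expressed.

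The transcription factors were higher in number 2 on every array. Irf9, the DNA-binding partner of STAT2, read 9.24 and 9.25 in KO UVA, 9.10 and 9.36 in KO sham, 8.85 and 9.81 in WT UVA, and 9.05 and 10.01 in WT sham. The 2 WT arrays of number 2 were the highest and KO differed little between the numbers, so KO minus WT was 0.22 in number 1 and -0.61 in number 2. Stat2 showed 0.30 and -0.30, and Irf7, the factor that amplifies interferon production, showed 0.28 and -0.03. Irf1 did not cross. It read 7.92 and 8.49 in KO UVA, 7.77 and 8.55 in KO sham, 7.53 and 8.14 in WT UVA, and 7.59 and 8.25 in WT sham, and was higher in KO in all 4 pairs. Its averaged difference was 0.30 (1.23-fold, SE 0.07 with the block), and it did not pass (limma adjusted p = 0.410 with the block and 1 without).

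Usp18, which removes ISG15 from proteins and dampens signalling at the receptor, had the widest crossing of all members. It read 8.92 and 8.96 in KO UVA, 8.62 and 9.44 in KO sham, 7.82 and 9.61 in WT UVA, and 8.05 and 10.26 in WT sham. KO arrays lay in the middle of the WT arrays, with KO minus WT at 0.83 in number 1 and -0.73 in number 2. Isg15, the ubiquitin-like modifier itself, differed by 0.31 in number 1 and 0.06 in number 2 and overlapped between genotypes.

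Among the antiviral effectors Ifit1, which binds foreign RNA and blocks its translation, had the widest range of any member (3.0 log2 units) and the largest averaged genotype difference. It read 9.24 and 10.05 in KO UVA, 8.92 and 10.41 in KO sham, 7.41 and 9.15 in WT UVA, and 7.78 and 9.99 in WT sham. KO was higher in all 4 pairs, by 1.83 after UVA-1 and 1.14 after sham in number 1 and by 0.91 and 0.42 in number 2, yet the genotypes overlapped across numbers because the WT sham array of number 2 exceeded both KO arrays of number 1. The averaged difference was 1.07 (2.10-fold, SE 0.20 with the replicate block) and did not pass over all genes (limma adjusted p = 0.308 with the block and 1 without). The 5 members higher in KO in all 4 pairs (Ifit1, Irf1, Nlrc5, Tapbp and Zbp1) stood beside 7.66% of all genes with that pattern, and the 3 lower in all 4 pairs (Bst2, Ifnar1 and Sting1) beside 7.78%. Tapbp was higher in KO only by its brighter probe set. In 0 members did all 4 KO arrays lie above or below all 4 WT arrays, against 0.866% and 0.942% of all genes.

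Bst2, or tetherin, which holds budding virus at the cell surface, was lower in KO in all 4 pairs. It read 9.66 and 10.03 in KO UVA, 9.64 and 9.64 in KO sham, 9.71 and 10.42 in WT UVA, and 9.89 and 10.50 in WT sham. The averaged difference was -0.39 (SE 0.12 with the block, limma adjusted p = 0.496), and most of it lay in number 2, at -0.62 against -0.15 in number 1. Bst2 also marks plasmacytoid dendritic cells. The other 3 listed markers of that cell type, Siglech, Tcf4 and Ccr9, summed to 2044 to 2352 intensity units on KO arrays and 1939 to 2447 on WT arrays, none at 0, so the genotypes overlapped. Tcf4, at 1805 to 2312, made up most of each sum. Siglech read 84 to 124 and Ccr9 27 to 31, beside array medians of 110 to 115, so the sums say little about that cell type.

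The other effectors with a wide crossing shared the order seen for Usp18. Rtp4, an inducible antiviral protein of the receptor-transporter family, read 8.14 and 8.37 in KO UVA, 7.94 and 8.81 in KO sham, 7.07 and 8.80 in WT UVA, and 7.56 and 9.73 in WT sham. Oasl2, of the oligoadenylate synthetase family, read 8.99 and 9.09 in KO UVA, 8.88 and 9.45 in KO sham, 8.03 and 9.33 in WT UVA, and 8.30 and 9.74 in WT sham. In both, the WT arrays were the lowest in number 1, and in number 2 each WT array lay above the KO array of the same treatment. Rsad2 encodes viperin, an enzyme that makes a chain-terminating nucleotide, and read 7.67 and 7.69 in KO UVA, 7.10 and 7.73 in KO sham, 6.73 and 7.94 in WT UVA, and 6.92 and 8.03 in WT sham. Xaf1, a pro-apoptotic interferon target, read 8.65 and 9.22 in KO UVA, 8.62 and 9.42 in KO sham, 8.31 and 9.65 in WT UVA, and 8.25 and 9.97 in WT sham. KO minus WT in number 1 and number 2 was 0.73 and -0.68 for Rtp4, 0.77 and -0.26 for Oasl2, 0.56 and -0.27 for Rsad2, and 0.36 and -0.49 for Xaf1.

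Cmpk2, the nucleotide kinase that lies beside Rsad2, read 8.43 and 8.55 in KO UVA, 8.27 and 9.13 in KO sham, 7.97 and 8.60 in WT UVA, and 8.12 and 9.54 in WT sham. Mx2, an antiviral dynamin-like GTPase, read 6.61 and 6.89 in KO UVA, 6.19 and 7.28 in KO sham, 6.09 and 7.39 in WT UVA, and 6.52 and 7.99 in WT sham. Mx1, its paralogue, read 5.81 and 5.78 in KO UVA, 5.52 and 5.61 in KO sham, 5.55 and 5.95 in WT UVA, and 5.52 and 6.15 in WT sham. For Mx2 and Mx1 the WT sham array of number 2 was the highest, and the genotypes overlapped in all 3 genes. Several effectors barely moved: the range over 8 arrays was 0.24 for Oas3, 0.30 for Ifit3 and 0.38 for Oasl1. Oasl1 read 93 to 121 and Oas3 142 to 168 intensity units, beside array medians of 110 to 115. Such dim readings cannot tell a steady gene from one that was not expressed. Isg20, an RNA exonuclease, and Oas2, an oligoadenylate synthetase, ran against the 8 effectors that were higher in number 2 throughout. Number 2 minus number 1 was -0.90 in KO UVA, -0.80 in KO sham and -0.84 in both WT groups for Isg20, and -0.82 in KO UVA, -0.34 in KO sham, -0.27 in WT UVA and -0.34 in WT sham for Oas2. Oasl1 was lower in number 2 in every group but KO sham.

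**Figure D4:**
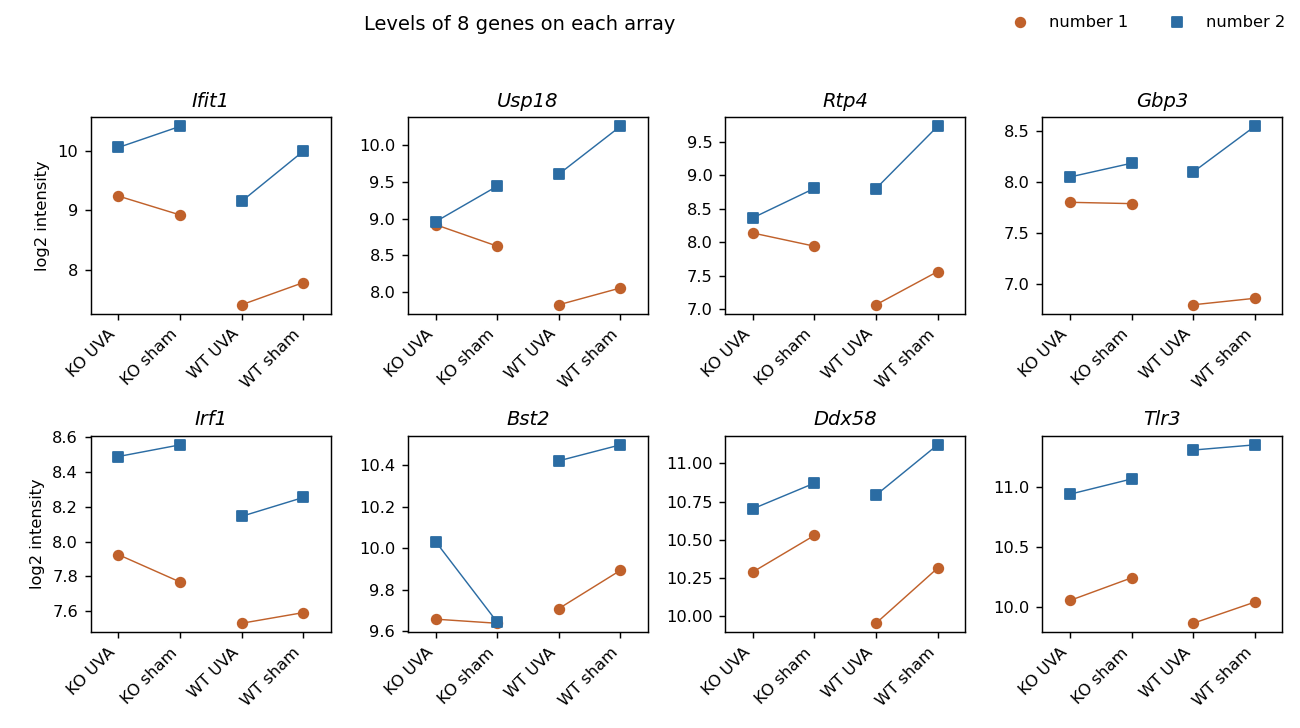
Log2 intensity of 8 genes on each array; circles are number 1, squares are number 2, and lines join UVA-1 and sham arrays of 1 genotype and number. Each panel has its own vertical scale. In Usp18, Rtp4 and Gbp3 all KO arrays lie above the WT arrays of number 1 and below the WT sham array of number 2, whereas Ifit1 and Irf1 are higher in KO within each number and Bst2 is lower.

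Of the ligases, Trim30a, a regulator of inflammatory signalling, had the third widest crossing. It read 6.57 and 6.21 in KO UVA, 6.64 and 6.55 in KO sham, 6.04 and 7.04 in WT UVA, and 6.15 and 7.37 in WT sham. The KO arrays of number 2 lay below those of number 1, opposite to WT, where number 2 was higher by 1.00 after UVA-1 and 1.22 after sham. Parp9, which works with the ligase Dtx3l, read 7.75 and 8.08 in KO UVA, 7.98 and 8.29 in KO sham, 7.58 and 8.39 in WT UVA, and 7.44 and 8.64 in WT sham. Parp12 and Parp14, further ADP-ribosyltransferases, crossed in the same way, and Trim25, the ligase that activates RIG-I, spanned 0.31 log2 units. The GTPase Gbp3, of the guanylate-binding proteins that attack intracellular microbes, read 7.80 and 8.05 in KO UVA, 7.79 and 8.18 in KO sham, 6.79 and 8.10 in WT UVA, and 6.86 and 8.55 in WT sham. Its WT arrays of number 1 stood well below every other array, and KO minus WT was 0.97 in number 1 and -0.21 in number 2.

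The antigen presentation genes split. Nlrc5, the transactivator of MHC class I genes, was higher in KO in all 4 pairs, with 7.27 and 7.97 in KO UVA, 7.49 and 7.92 in KO sham, 7.04 and 7.41 in WT UVA, and 7.02 and 7.78 in WT sham. The averaged difference was 0.35 in both numbers (1.27-fold, SE 0.09 with the block, limma adjusted p = 0.469). Tapbp, the chaperone tapasin that loads peptide on class I molecules, was higher in KO in all 4 pairs as well, with 10.50 and 10.73 in KO UVA, 10.52 and 10.66 in KO sham, 10.32 and 10.52 in WT UVA, and 10.33 and 10.46 in WT sham. Its difference was 0.19 in number 1 and 0.20 in number 2 (SE of the average 0.05 with the block, limma adjusted p = 0.477). Tap1, the peptide transporter, crossed (0.14 in number 1 and -0.15 in number 2). B2m, the invariant light chain of class I molecules, spanned 0.10 log2 units over the 8 arrays and was the steadiest member. Its intensities, 17538 to 18850 units, lay near the highest value of any probe set, 22585. Whether such bright readings can still show a change was not tested.

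The comparison of UVA-1 with sham asks whether the interferon genes responded within 6 h. No member passed it. Without a block limma called 0 of 42 averaged over genotypes, in KO and in WT, against 0% of all genes, and at an unadjusted p under 0.05 it held 0 members, against 1.81%, 1.57% and 1.54% of all genes. Blocked on the replicate number it called 0 members, against 0.0135%, 0.00902% and 0.00451% of all genes. At an unadjusted p under 0.05 this fit held 1 member averaged, 0 in KO and 2 in WT, against 6.54%, 4.02% and 3.94% of all genes. When each combination of genotype and number was a block, which sets each UVA array against the sham array of the same genotype and number, 0 members passed again, against 0.365% of all genes averaged, 0.00902% in KO and 0.0541% in WT. At an unadjusted p under 0.05 that fit held 10 of 42 members (23.8%) averaged, against 12.6% of all genes, 3 in KO, against 8.49%, and 10 in WT (23.8%), against 8.4%.

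In WT most members read lower after UVA-1, none of them past the test. The median UVA minus sham difference of the 42 was -0.13 in WT, -0.02 in KO and -0.08 on average, beside 0.01 over all genes in WT. By pair it was 0.07 in KO of number 1, -0.08 in KO of number 2, -0.06 in WT of number 1 and -0.17 in WT of number 2. UVA was lower than sham in all 4 pairs for 6 members, Ddx58, Ifih1, Ifit2, Irgm1, Tlr3 and Trim30a, against 9.08% of all genes, and higher in all 4 for Isg20 and Tap1, against 10.6%. Ddx58 came closest to the threshold: it was lower after UVA-1 by 0.24 and 0.17 in KO and by 0.36 and 0.33 in WT in number 1 and number 2. With genotype and number as a block its averaged difference was -0.27 (0.827-fold, SE 0.04, limma adjusted p = 0.0516), and without a block its adjusted p was 1. Ifih1 followed with -0.21 (SE 0.06, limma adjusted p = 0.178 with that block) and Tlr3 with -0.13 (SE 0.05, 0.274). Thus 3 of the 6 sensors were lower after UVA-1 in every pair. Outside the 42, 15 further sensing and adaptor genes were measured. Of these, Irf8, Mavs, Myd88, Tbk1 and Traf6, named after their values were seen, were higher after UVA-1 in every pair. None of the 15 was lower in every pair.

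The largest differences in WT that kept their sign in both numbers were those of Rtp4 (-0.50 in number 1 and -0.93 in number 2), Ifit1 (-0.37 and -0.84), Cmpk2 (-0.15 and -0.94) and Mx2 (-0.44 and -0.60). In each, the difference in KO had opposite signs in the 2 numbers: 0.20 and -0.44 for Rtp4, 0.32 and -0.35 for Ifit1, 0.15 and -0.58 for Cmpk2, and 0.42 and -0.38 for Mx2. The members with the largest differences of 1 sign in KO were Mx1 (0.28 and 0.17), Parp9 (-0.23 and -0.21), Tap1 (0.20 and 0.22) and Trim30a (-0.07 and -0.35). Mx1 was dim: in KO it went from 46 to 56 and from 49 to 55 intensity units, beside array medians of 110 to 115. Trim30a read 66 to 165 units over the arrays. Tap1 read 8.94 and 9.43 in KO UVA, 8.73 and 9.20 in KO sham, 8.76 and 9.53 in WT UVA, and 8.63 and 9.41 in WT sham, so UVA was above sham in every pair, but the treatments overlapped across numbers. None of these passed in any fit.

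**Figure D5:**
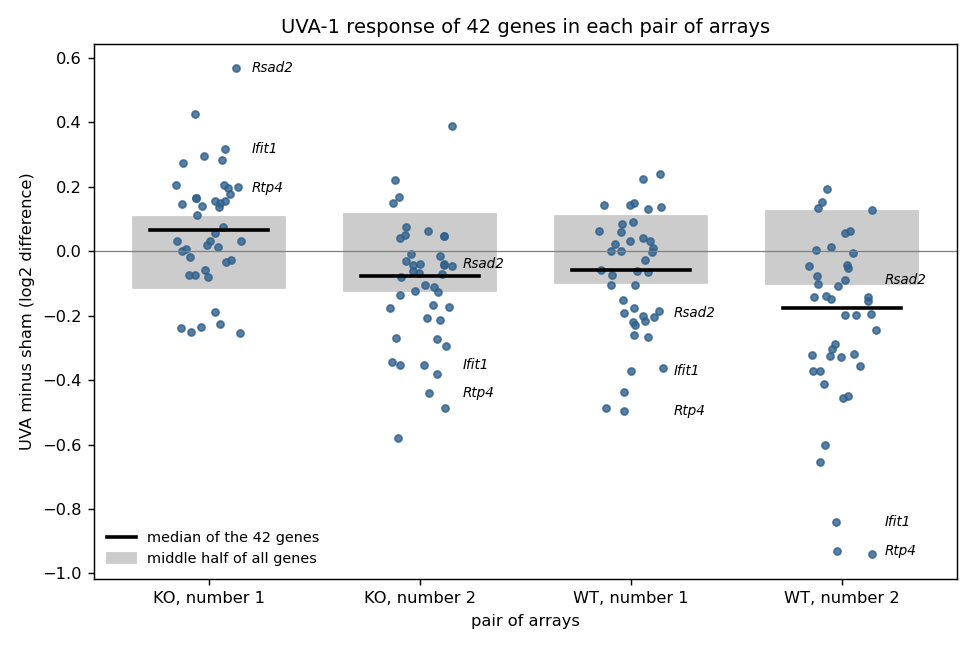
UVA minus sham difference (log2) of each of the 42 genes in each genotype and number; points are genes, the black line is their median, and the grey box spans the lower to the upper quartile of all genes. The median is 0.07 in KO of number 1 and below 0 in the other pairs, lowest at -0.17 in WT of number 2, where Rtp4 and Ifit1 reach -0.93 and -0.84.

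Whether the response to UVA-1 differed between genotypes was tested as an interaction. In limma 0 of 42 members passed without a block, with the replicate block and with genotype and number as a block (0% of all genes in each). At an unadjusted p under 0.05 there were 0 without a block, 0 with the replicate block and 3 with genotype and number as a block, Bst2, Ifit1 and Rtp4, against 1.33%, 2.06% and 3.45% of all genes. The median over the 42 of the response in KO minus that in WT was 0.09 (0.07 in number 1 alone and 0.09 in number 2 alone), and the difference was above 0 in 33 of them, beside a median of -0.01 over all genes. For Rtp4 the response in KO minus that in WT was 0.59 (SE 0.23) and for Ifit1 0.59 (SE 0.23), each with a limma adjusted p of 1.

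Of 125 further genes of the pathway, 113 were measured. In KO against WT 0 of 113 passed without a block and 0 with the replicate block, averaged over treatments. At an unadjusted p under 0.05 limma held 7 (6.19%, against 2.33% of all genes) without a block and 13 (11.5%, against 8.88%) with the replicate block. KO was higher in all 4 pairs for 18 of them (15.9%, against 7.66% of all genes) and lower for 5 (4.42%, against 7.78%). The crossing from number 1 to number 2 described above was shown by 32 (28.3%, against 9.65%). All 4 KO arrays lay above all 4 WT arrays for Ccl5, H2-K1 and Ptpn11 (2.65%, against 0.866%), and below them for Nod2 and Sp100 (1.77%, against 0.942%), genes named here after their values were seen. After UVA-1, 1 of the 113 passed, only with genotype and number as a block (against 0.365% of all genes): Zc3hav1, the antiviral zinc-finger protein ZAP that binds viral RNA, rose by 0.30 on average (1.23-fold, SE 0.04, limma adjusted p = 0.0392, and 1 without a block). It read 10.86 and 10.72 in KO UVA, 10.55 and 10.40 in KO sham, 10.80 and 10.58 in WT UVA, and 10.52 and 10.31 in WT sham. All 4 UVA arrays lay above all 4 sham arrays, an order whose share over all genes was not counted. The margin was small, with WT UVA of number 2 at 10.58 and KO sham of number 1 at 10.55. Of the 113, UVA was higher than sham in all 4 pairs for 15 (13.3%, against 10.6% of all genes). It was lower in all 4 pairs for 18 (15.9%, against 9.08%).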

How the data were processed

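RNA of 8 melanocyte samples was measured on 1-colour Affymetrix whole-transcript arrays, 2 in each of 4 groups. Groups and numbers came from the sample titles. The authors deposited 1 intensity for each probe set on each array, made by robust multi-array averaging (RMA) in Affymetrix Expression Console 1.3.1.187 per the submitters' processing notes, which gives the arrays near-equal distributions. Neither genome build nor annotation version is stated in the sources used here. The tests were planned for log2 values, but the deposited intensities were whole numbers from 7 to 22585, so log2 was taken; no pseudocount was needed.

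Of 41345 probe sets, 23521 had a single gene symbol, 1814 several and 16010 none in the table used. The single-symbol probe set with the highest mean represented a gene, which gave 22180 genes. Array medians were 110 to 115, and precision is limited by the number of arrays. Ifi35 and Tapbp had a second, dimmer probe set, which in both ran against the probe set used when KO was compared with WT.

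Group means were fitted over all 8 arrays with limma 3.58.1 in R 4.3.3 (lmFit, eBayes with a trend; 4 residual degrees of freedom), with two-sided p-values adjusted by Benjamini-Hochberg over all genes and a threshold of 0.05. Deviations from group means correlated at 0.80 to 0.92 in all 6 pairs of groups, so the replicate numbers, which groups share in their titles, were taken to pair the arrays. The number was therefore also a block (3 residual degrees of freedom), as was genotype with number for UVA-1 (2). UVA and sham arrays of 1 genotype and number enter the blocked genotype fit separately, so its p-values are too small if they share a culture. Other alternatives were a second quantile normalization, median centring, a pseudocount of 16, removal of genes with a mean log2 under 6, no trend, the mean of probe sets, 1 value per culture and leaving out each array. The fit was tested on simulated data.

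The members and the lists of further pathway genes and markers were chosen with earlier results of these data known. Array values are given for members past the threshold; the 8 largest averaged genotype differences of 1 sign in all 4 pairs; the 8 largest gaps between the numbers; the 4 largest UVA-1 differences of 1 sign in KO and in WT; sensors and receptors; and, among further pathway genes, those past the threshold and ligands, of which 15 are given by range only. Promoter windows were RefSeq's (GRCm38.p6).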

Additional observations from a re-analysis of the deposited data

Results flagged for a closer look

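Bst2 was singled out because its UVA minus sham difference was above 0 on both KO pairs, at 0.02 and 0.39, and below 0 on both WT pairs, at -0.18 and -0.08 (log2, number 1 and number 2). The response in KO exceeded that in WT by 0.3345 on the log2 scale. The difference was tested as an interaction in limma and did not pass (adjusted p = 1 without a block, with the replicate block and with genotype and number as a block, where the unadjusted p was 0.0372). The KO value rests mainly on number 2.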

How the results depend on the processing

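The count of members past the threshold was 0 in all 7 comparisons under every alternative run. For the 113 further pathway genes the count was 0 throughout, except for 1, Zc3hav1, averaged over genotypes with genotype and number as a block. With the replicate block the medians of the 42 for KO minus WT were 0.02 averaged over treatments, -0.03 after sham and 0.09 after UVA-1. They equal the medians without the block by design. Every group holds each number once, so the block cannot change a difference between groups. The median of the response to UVA-1 in KO minus that in WT, 0.0937, was 0.1074 after centring on array medians and 0.0733 with number 1 alone and 0.0864 with number 2 alone; the values for each number alone were chosen after seeing the data, and the cause was not tested. Leaving out each array in turn, the median ranged from -0.4146 (without WT sham of number 1) to 0.4148 (without WT sham of number 2) for KO against WT after sham, and from -0.1807 (without WT UVA of number 1) to 0.4064 (without WT UVA of number 2) after UVA-1. It ranged from -0.2469 (without WT sham of number 1) to 0.119 (without WT sham of number 2) for UVA-1 averaged over genotypes, and from -0.2224 (without KO sham of number 1) to 0.1766 (without KO sham of number 2) in KO. In WT it ranged from -0.5644 to 0.2188, and for the difference in response from -0.2317 to 0.5138, where WT sham of number 1 and number 2 gave the ends. A left-out array leaves its group with 1, assumed to vary like the others. Leaving out an array unpairs the numbers. Rounding of the deposited values to whole numbers coarsens dim probe sets.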

Other observations

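The probe sets of several genes hold 3 members that could not be read alone. That for Gbp2 and Gbp2b, guanylate-binding proteins, read 9.39 and 9.08 in KO UVA, 9.70 and 9.16 in KO sham, 8.07 and 8.64 in WT UVA, and 8.67 and 8.85 in WT sham (log2, number 1 and number 2), so all 4 KO arrays lay above all 4 WT arrays, an order held by 0.866% of single genes. It was not tested, since it stands for more than 1 gene. That for Oas1a and Oas1g read 6.15 and 6.36 in KO UVA, 6.77 and 6.54 in KO sham, 5.75 and 7.15 in WT UVA, and 6.13 and 7.74 in WT sham, and that for Dtx3l and Parp9 8.90 and 8.91, 8.77 and 8.99, 8.52 and 9.04, and 8.69 and 9.26 in the same order of groups.

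Genes in this and the next paragraph were chosen after their values were seen. Cxcl10, a chemokine that attracts T cells and an interferon target, read 9.42 and 10.95 in KO UVA, 9.28 and 11.70 in KO sham, 7.53 and 9.17 in WT UVA, and 7.71 and 10.46 in WT sham. The averaged difference of KO from WT was 1.62 (3.07-fold, SE 0.20 with the replicate block, limma adjusted p = 0.135, and 1 without a block). Ccl5, another T cell chemokine, read 7.30 and 8.32 in KO UVA, 7.71 and 8.45 in KO sham, 6.46 and 6.83 in WT UVA, and 6.67 and 6.99 in WT sham, a difference of 1.21 (SE 0.13, limma adjusted p = 0.0781 with the block and 1 without). Both were higher in KO in all 4 pairs, as Ifit1 was, and neither passed.

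Ifi205, of the interferon-inducible HIN-200 family, read 12.48 and 6.55 in KO UVA, 12.19 and 6.17 in KO sham, 12.19 and 5.98 in WT UVA, and 11.72 and 5.88 in WT sham. Ifi204, of the same family, read 10.86 and 7.29 in KO UVA, 10.88 and 7.64 in KO sham, 10.73 and 6.64 in WT UVA, and 10.53 and 6.85 in WT sham. Both were far higher in number 1, opposite to most of the 42 interferon genes and on the same side as the fibroblast markers, a relation that was not tested. Lyz2, one of the 10 myeloid markers, read 1554 and 1717 intensity units on the KO arrays of number 2, against 259 to 557 on the other 6 arrays, while the list summed to 1484 to 2942 on KO arrays and 1341 to 1659 on WT arrays, none at 0. Without Lyz2 the other 9 myeloid markers summed to 1087 to 1225 on KO arrays and 1082 to 1207 on WT arrays, so the genotypes overlapped. Cd68, at 339 to 549, was the largest part of each of these sums. Ptprc read 29 to 34, Adgre1 35 to 46 and Itgam 64 to 88, beside array medians of 110 to 115. The sums thus say little about myeloid cells.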
